A study of Mus musculus with 4 samples.

Results

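Genomic imprinting, the expression of a gene from the allele of a single parent, was examined across 38 genes of 18 mouse loci in PSC-derived SG placodes and in E12.5 submandibular glands (SMGs). The genes were chosen by symbol, and 31 of the 38 were listed among 24771 features. The other 7, all non-coding RNAs (H19, Meg3, Rian, Mirg, Kcnq1ot1, Airn and Peg13), were not analysed here, and 99.4% of the Ensembl genes in the table were protein coding. The placodes were aggregates of 129w2, a mouse embryonic stem cell (mESC) line, seeded at 3000 cells per well and given 2% Matrigel, 2 ng/ml BMP4 on day 3, 25 ng/ml bFGF with 1 μM retinoic acid (RA) on day 4 and 200 ng/ml FGF10 from day 6. They were taken on day 10 as 2 samples. Their labels call them induced embryonic salivary glands. The SMGs were 2 samples labelled as E12.5 mouse glands, for which neither the strain nor the number of embryos per sample is stated. All placodes came from this 1 cell line, and the sources do not state that the 2 samples of a group were separate cultures or litters, so p-values measure the spread between these samples, which may be technical. Values are FPKM, which scale the fragments mapped to a gene by its transcript length and the mapped total, and they sum the RNA of both alleles.

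Imprinted genes carry DNA methylation set in the egg or the sperm at control regions, and the methylated allele of the control region decides which parental copy of its neighbours is read. Neighbours in a locus can be read from opposite alleles. Many of them act on fetal growth: paternally expressed Igf2 encodes a growth factor, maternally expressed Igf2r a receptor that removes it, and maternally expressed Cdkn1c a brake on the cell cycle. Many are abundant in mesenchyme and placenta, and several are known from neurons. By textbook knowledge of the mouse, 13 of the 38 genes were classed as expressed from the maternal allele and 23 from the paternal allele. The remaining 2, Grb10 and Gnas, depend on the tissue or the transcript.

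Promoter windows of 4 transcripts are shown because their genes had the widest differences below or were read from neighbouring starts in opposite directions. Each window is the 300 bases from 250 before to 50 after an annotated start (RefSeq, GRCm38.p6), written in the direction of the gene. Grb10 has a window at each of 2 annotated starts on the minus strand of chromosome 11. The first lies at chr11:12037371-12037670 and the second at chr11:12027922-12028221. Nap1l5 lies on the minus strand at chr6:58907077-58907376. Capitals in these windows mark TGCCGC or its reverse complement GCGGCA, the letters bound by ZFP57, a zinc finger protein that keeps imprints methylated. The window of Peg3 is on the minus strand at chr7:6730370-6730669, and its capitals mark the 164 bases between the annotated start of Usp29, which is read the other way, and that of Peg3.
Grb10, first start: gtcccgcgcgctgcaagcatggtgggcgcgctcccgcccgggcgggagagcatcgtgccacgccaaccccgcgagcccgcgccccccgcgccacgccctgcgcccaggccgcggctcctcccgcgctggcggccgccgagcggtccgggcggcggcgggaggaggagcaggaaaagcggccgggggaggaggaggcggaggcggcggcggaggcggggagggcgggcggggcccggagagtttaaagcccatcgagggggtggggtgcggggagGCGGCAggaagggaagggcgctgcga
Grb10, second start: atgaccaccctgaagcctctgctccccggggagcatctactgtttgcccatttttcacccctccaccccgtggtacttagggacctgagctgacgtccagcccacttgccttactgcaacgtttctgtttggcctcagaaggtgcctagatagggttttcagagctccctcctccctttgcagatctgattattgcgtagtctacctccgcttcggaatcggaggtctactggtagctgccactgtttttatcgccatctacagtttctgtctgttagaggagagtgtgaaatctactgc
Nap1l5: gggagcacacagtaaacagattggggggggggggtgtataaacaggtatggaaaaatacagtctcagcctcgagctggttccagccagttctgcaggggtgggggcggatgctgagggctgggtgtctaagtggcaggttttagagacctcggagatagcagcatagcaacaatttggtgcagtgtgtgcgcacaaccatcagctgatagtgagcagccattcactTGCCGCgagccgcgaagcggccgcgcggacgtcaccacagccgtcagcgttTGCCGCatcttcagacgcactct
Peg3: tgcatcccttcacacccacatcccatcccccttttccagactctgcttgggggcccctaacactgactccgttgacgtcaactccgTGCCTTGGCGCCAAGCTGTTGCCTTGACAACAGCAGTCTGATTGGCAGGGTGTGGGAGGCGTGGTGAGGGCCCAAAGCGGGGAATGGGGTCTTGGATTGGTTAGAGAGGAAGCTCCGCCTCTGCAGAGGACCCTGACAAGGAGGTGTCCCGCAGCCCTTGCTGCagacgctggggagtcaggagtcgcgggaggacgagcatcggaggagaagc
The letters TGCCGC on either strand were present in 11 of 49 windows of the imprinted genes (22.4%) and in 11.6% of all 32851 promoter windows, and 32 of the 38 genes had a window. Matches fell in windows of 10 genes. Both Mest windows with matches start a few bases apart and overlap almost whole, so their matches are counted in each. Nap1l5 had 2 matches, the first start of Grb10 had 1, and its second start and Peg3 had 0. A match describes these letters only, and binding was not measured.

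The summed level of the imprinted genes was higher in the SMGs than in the placodes, through a few abundant genes. The 31 listed genes held 2.40% and 2.69% of the summed FPKM in SMG samples 1 and 2, against 0.723% and 0.728% in placode samples 1 and 2. Of the 25 highest features in each SMG sample, 5 were imprinted genes (Cdkn1c, Gnas, Igf2, Mest and Dlk1), and 0 were in either placode sample. The Kcnq1ot1 locus, mainly Cdkn1c, took the largest part in the SMGs, 0.662% and 0.769%, and the Nnat locus in the placodes, 0.214% and 0.220%. An FPKM of at least 1 in both samples of the group was reached by 27 of the 31 genes in the placodes and by 28 in the SMGs.

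**Figure D1:**
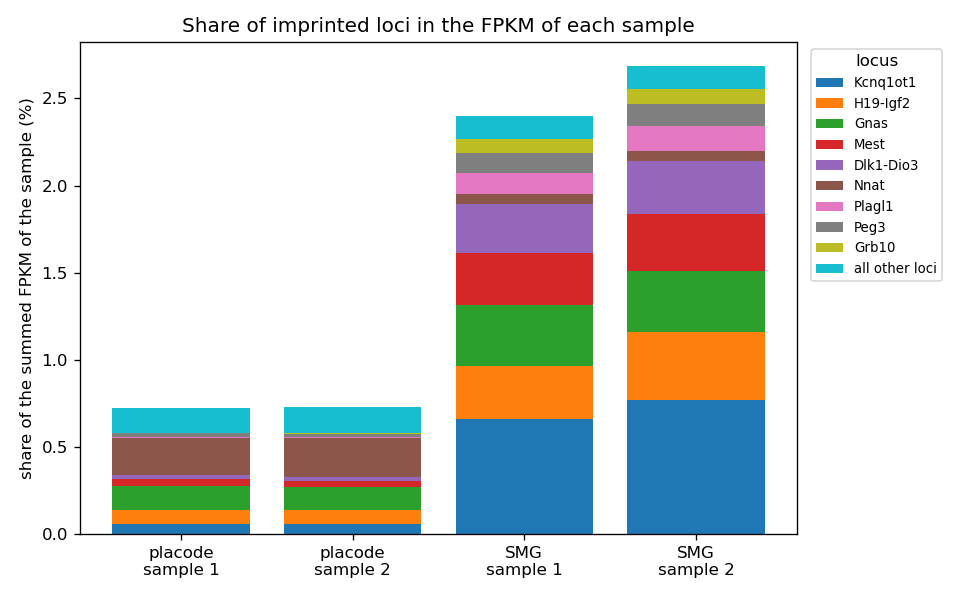
Stacked bars give the percentage of the summed FPKM of each of the 4 samples held by the listed imprinted genes, coloured by locus. The SMG bars reach 2.40% and 2.69% and the placode bars 0.723% and 0.728%.

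Levels were compared on the scale of log2(FPKM + 1), placodes minus SMGs, with limma over the 13193 features with a mean FPKM of at least 1. On this scale a difference understates the ratio of FPKM where values are low. With Benjamini-Hochberg adjustment over all tested features, an adjusted p below 0.05 was the threshold for calling a gene different. Among 28 tested imprinted genes, the placodes were higher in 10 and lower in 17, and 1 (Dio3) was not called. The 27 calls are 96.4% of the genes, and over all tested features 76.2% were called, 35.7% higher and 40.4% lower. At least 2-fold differences were called for 20 of the 28 genes, 6 higher and 14 lower, against 29.4% of all tested features, 14.1% higher and 15.2% lower. The median absolute log2 difference was 1.86 over the 28 genes and 0.55 over all tested features. The median signed difference was -0.97 over the 28 genes and -0.05 over all tested features. For 28 of 28 genes every value of a group lay outside the range of the other group, as it did for 88.4% of all tested features. Grb10, Asb4 and Nap1l5 passed the minimum mean only through the group in which they were high, and without them 9 genes were higher and 15 lower of 25. Slc22a18, Ascl2 and Slc22a3 did not pass it and were not tested.

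By allele, the 6 tested maternally expressed genes were all lower in the placodes, 5 of them at least 2-fold. They were Zim1, Asb4, Cdkn1c, Phlda2, Cd81 and Igf2r. The class is a textbook label, and the imprinting of Cd81 is known from placenta. Whether each of the 6 was read from 1 allele in these samples is not known. Over all tested features 40.4% were lower, and 15.2% were lower by at least 2-fold. Maternally expressed genes below the minimum mean went both ways. Ascl2 was higher in the placodes, at 1.25 and 1.11 against 0.152 and 0.129. Slc22a18 was lower, at 0 in both placode samples against 1.28 and 1.49, and Slc22a3 was below 0.2 in every sample. The paternally expressed genes went both ways, with 10 of 20 higher and 9 lower. Grb10 and Gnas were lower. The number of maternally expressed genes is small, 3 of the 6 lie in the Kcnq1ot1 locus, and the difference between the allele classes was not tested. Parental alleles were not assigned to the 39 further imprinted genes below, so the count of 6 covers the chosen genes only. Of 25 tested in that list, 9 were higher and 12 lower, where 35.7% of all tested features were higher and 40.4% lower. RNA from the 2 alleles is summed in FPKM, so a change in the active allele cannot be told apart from a change in the number of silent copies that are read.

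**Figure D2:**
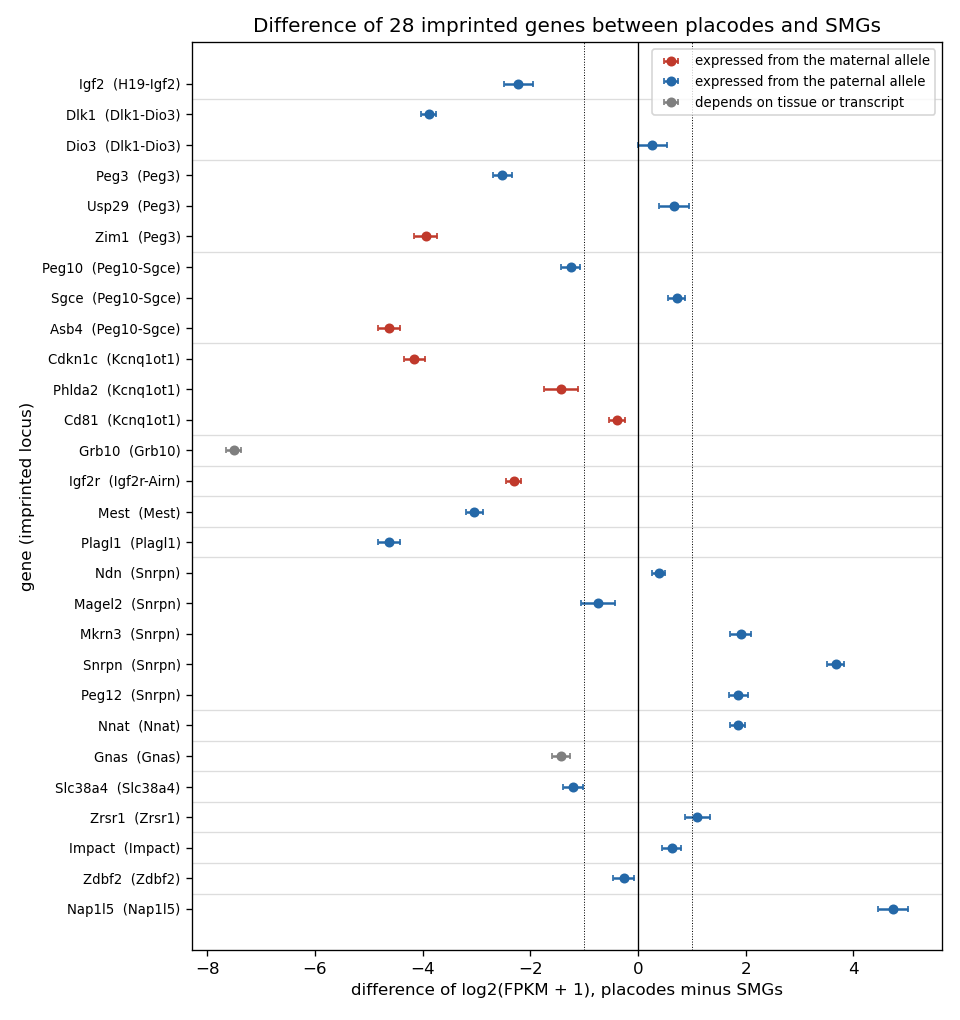
Points give the difference of log2(FPKM + 1), placodes minus SMGs, of the 28 tested imprinted genes in order of locus, with the 95% confidence interval of limma (2 samples per group). Red marks maternally and blue paternally expressed genes, grey the 2 that depend on tissue or transcript, and dotted lines a 2-fold difference. The 6 tested maternally expressed genes lie left of 0 and the paternally expressed genes on both sides. Ascl2, maternally expressed, not tested and higher in the placodes, is not shown.

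Markers of several cell types differed between the same samples. All 12 neuronal markers were higher in the placodes, led there by Tubb3 and in the SMGs by Gap43. They had a summed FPKM of 1749.9 and 1781 against 168 and 153 in the SMGs. All 8 markers of neural progenitors were higher too, led by Fabp7 in the placodes and Nes in the SMGs, at 854 and 880.4 against 66.2 and 62.0. The 11 tested mesenchymal markers, led by Col3a1 in both groups, were lower in the placodes. All 12 listed summed to 242 and 234 against 2249 and 2209.6. Tcf21, not tested, was higher in the placodes, at 0.458 and 0.619 against 0.175 and 0.130.
Of 12 epithelial markers, 9 were lower and 1, Krt19, was higher, and Krt8 and Krt18 were not called. The list summed to 77.4 and 83.5 against 452 and 399. Krt8 led in the placodes and Krt15 in the SMGs. Krt19 had an FPKM of 14.7 and 15.8 against 9.78 and 6.53, a log2 difference of 0.85. Krt5, Krt14 and Krt15 were listed at 0 in both placode samples. The 8 endothelial markers, led by Cdh5, were lower, at 12.6 and 11.9 against 145 and 152. All 7 tested erythroid markers were lower. The 8 listed summed to 0.0258 and 0.255 against 2578 and 2529, with Alas2 the highest in the placodes and Hbb-y in the SMGs. Of 6 tested muscle markers, 5 were lower and 1, Pax7, was higher, at 12.7 and 11.5 against 1.27 and 0.763. The 8 listed muscle markers summed to 15.1 and 13.5 against 172 and 119. Most of the placode sum was Pax7, and Actc1 led in the SMGs. Esrrb was the 1 tested pluripotency marker, and it was higher in the placodes, at 20.0 and 19.6 against 0.0630 and 0.0628. The list of 8 summed to 24.0 and 22.8 against 0.404 and 0.517, mostly through Esrrb. Sall4 was next in the placodes, at 1.66 and 1.33. Pou5f1 was at 0.403 and 0.340 against 0 in both SMG samples, and Nanog was at 0.149 and 0.234 with values that overlap those of the SMGs. Of 15 housekeeping genes, led by Eef1a1, 5 were higher and 10 lower, with a median log2 difference of -0.46. Many of these markers passed the minimum mean only through the group in which they were high, so the counts are a description. Fewer cells of a type and less RNA per cell cannot be told apart in these bulk samples, and the part of cell types in the differences below was not tested.

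**Figure D3:**
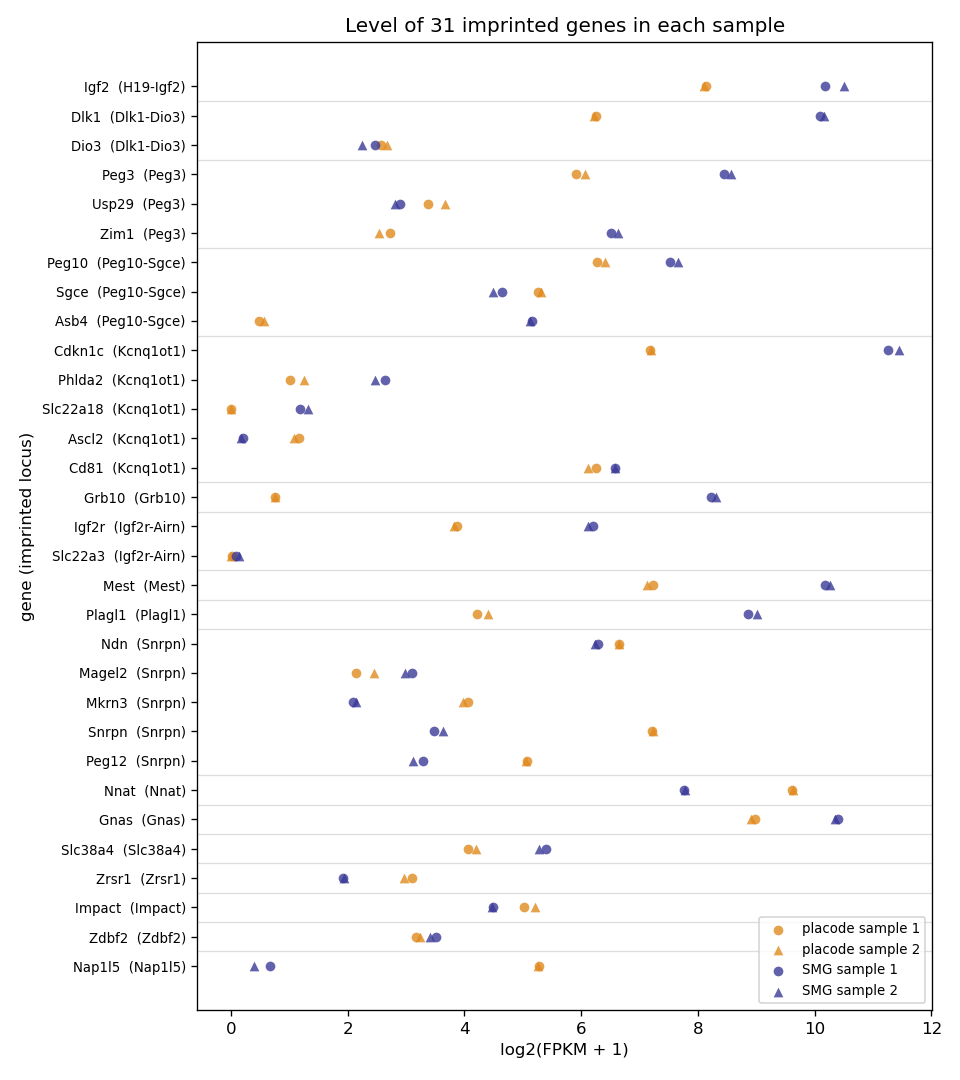
Points give log2(FPKM + 1) of each listed imprinted gene in the 4 samples, with placodes in orange, SMGs in dark blue, circles for sample 1 and triangles for sample 2. Samples of a group lie close together for most genes, and Grb10, Nap1l5 and Plagl1 show the widest gaps between the groups.

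The imprinted genes Igf2, Igf2r and Grb10, which act in insulin-like growth factor signalling, were each lower in the placodes. Igf2, the fetal growth factor of the H19-Igf2 locus on chromosome 7, had an FPKM of 282 and 273 in the placodes and of 1157 and 1454 in the SMGs. On the log2 scale they differed by -2.22 (standard error 0.11, adjusted p = 8.45e-06). The SMG samples were the less alike pair, and Igf2 shares exon bases with Gm49394, an annotated gene on the same strand that reads can be divided with. Gm49394 had an FPKM of 163 and 9.96 in SMG samples 1 and 2 and of 0.875 and 0.836 in the placodes. Added together, the genes reached 1320.5 and 1464 in the SMGs and 283 and 274 in the placodes, so the SMG mean was 5.0 times the placode mean, against 4.71 times for Igf2 alone. Igf2r, on chromosome 17, encodes the receptor that carries IGF2 to the lysosome. Its FPKM was 13.7 and 13.1 in the placodes and 73.0 and 68.2 in the SMGs, a difference of -2.31 (standard error 0.06, adjusted p = 5.66e-07).

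Grb10, an adaptor that binds the insulin and IGF receptors and restrains growth, had the widest difference of all the imprinted genes. It lies on chromosome 11 of GRCm38 from 11930508 to 12038683 and shares no exon bases with another gene. The FPKM was 0.698 and 0.698 in the placodes, and 300.01 and 316 in the SMGs. In ratio, the SMG mean was 441 times the placode mean, and the log2 difference was -7.51 (standard error 0.06, adjusted p = 4.1e-08). Grb10 is read from its maternal copy in most tissues and from its paternal copy, at another start, in neurons. FPKM per gene sums the starts shown above, so the share of each start is not known. Neuronal markers were high in the placodes, where Grb10 was below an FPKM of 1, and a link between them was not tested.

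A list of IGF and insulin receptors, their adaptors and IGF2 mRNA-binding proteins, whose genes are not imprinted, moved less. Of these 7 genes, 3 were higher, 2 were lower and 2 were not called, with a median log2 difference of -0.11. Over all tested features 35.7% were higher and 40.4% lower. The same counts of the 7 were found under 3 other scalings. Igf1r, the receptor through which IGF2 signals, was higher by 0.59 (standard error 0.06, adjusted p = 0.000261), and Irs2 and the RNA-binding gene Igf2bp2 were higher by 0.51 and 0.41. The adaptor gene Irs1 was lower, with a difference of -0.70, and Igf2bp3 was at -0.46.

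In the Kcnq1ot1 locus on chromosome 7, Cdkn1c had the highest level of all imprinted genes in the SMGs. Cdkn1c encodes p57, an inhibitor of cyclin-dependent kinases, and spans positions 143458339 to 143461050. In FPKM it was at 144 and 146 in the placodes and 2448 and 2775 in the SMGs, an 18.0-fold ratio of means. The log2 difference was -4.16 (standard error 0.08, adjusted p = 2.59e-07). Cdkn1c ranked number 11 and 5 among all features of SMG samples 1 and 2 and number 330 and 319 in the placodes. Phlda2, which restrains growth of the placenta, had an FPKM of 1.02 and 1.39 against 5.26 and 4.56, with a difference of -1.42 (adjusted p = 0.000111). Cd81, a tetraspanin whose imprinting is known from placenta, differed least, at 75.5 and 68.8 against 94.7 and 95.0 (difference -0.39, adjusted p = 0.00106).
The other genes of the locus were near the limit of the table. Slc22a18, a transporter gene between Cdkn1c and Phlda2, was at 0 in each placode sample and at 1.28 and 1.49 in the SMGs. Ascl2, a transcription factor of the trophoblast, was the exception in direction, at 1.25 and 1.11 in the placodes and 0.152 and 0.129 in the SMGs. With no minimum of mean FPKM, Ascl2 had a log2 difference of 0.94 (limma, adjusted p = 0.00101) and Slc22a18 of -1.25 (adjusted p = 0.000488).

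Dlk1 and Dio3, at opposite ends of a locus on chromosome 12, differed from each other in behaviour. Dlk1, a membrane protein related to Notch ligands and found on many fetal progenitors, had an FPKM of 75.02 and 73.8 in the placodes and of 1089 and 1144 in the SMGs. The SMG mean was 15.01 times the placode mean, with a log2 difference of -3.89 (standard error 0.05, adjusted p = 1.36e-07). Dio3 encodes an enzyme that inactivates thyroid hormone. Its FPKM was 4.96 and 5.37 in the placodes and 4.53 and 3.76 in the SMGs, which do not overlap but lie close together. The log2 difference of 0.26 (95% interval -0.01 to 0.53) did not pass the threshold (adjusted p = 0.0696). It passed under 3 other scalings, at adjusted p-values of 0.0342 to 0.0374, and without SMG sample 1 (0.0472). Rtl1 and Begain lie between or beside them in the same region. Rtl1, a retrotransposon-derived gene, was lower by the same fit (-1.56), and Begain was higher (0.94). Both were named after their values were seen.

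The Peg3 locus, at the proximal end of chromosome 7, held genes called in opposite directions. Peg3 and Usp29 are both paternally expressed and have RefSeq starts 164 bases apart, so their windows of 300 bases share 263. Peg3, which encodes a large zinc finger protein, had an FPKM of 59.5 and 66.0 in the placodes and of 348 and 379 in the SMGs. The log2 difference was -2.52 (standard error 0.07, adjusted p = 8.51e-07). Usp29, a ubiquitin protease gene, had an FPKM of 9.38 and 11.8 in the placodes and of 6.43 and 6.06 in the SMGs, a difference of 0.67 (standard error 0.11, adjusted p = 0.00208). Within each sample, the FPKM of Peg3 was 6.34 and 5.61 times that of Usp29 in the placodes and 54.1 and 62.6 times in the SMGs. A constant factor per sample leaves this ratio as it is. The ratio is given by sample, and its difference between the groups was not tested. Zim1, the maternally expressed zinc finger gene beside Peg3, had an FPKM of 5.65 and 4.79 against 90.4 and 98.7. Its difference of -3.94 (adjusted p = 3.76e-07) was in the direction of Peg3.

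Peg10 and Sgce on chromosome 6 form a like pair, again both paternally expressed and read in opposite directions from adjacent starts. Peg10, derived from a retrotransposon and needed in the placenta, had an FPKM of 75.9 and 84.2 in the placodes and of 183 and 201 in the SMGs. Sgce, which encodes epsilon-sarcoglycan, had an FPKM of 37.4 and 38.9 in the placodes and of 24.1 and 21.6 in the SMGs. Peg10 was thus lower (difference -1.25, adjusted p = 1.51e-05) and Sgce higher (difference 0.72, adjusted p = 0.00013). The FPKM of Peg10 was 2.03 and 2.16 times that of Sgce in the placodes and 7.59 and 9.32 times in the SMGs. Asb4, a maternally expressed adaptor of ubiquitin ligases farther along the locus, had an FPKM of 0.390 and 0.481 in the placodes and of 34.9 and 33.8 in the SMGs. Its difference was -4.62 (standard error 0.09, adjusted p = 2.36e-07).

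**Figure D4:**
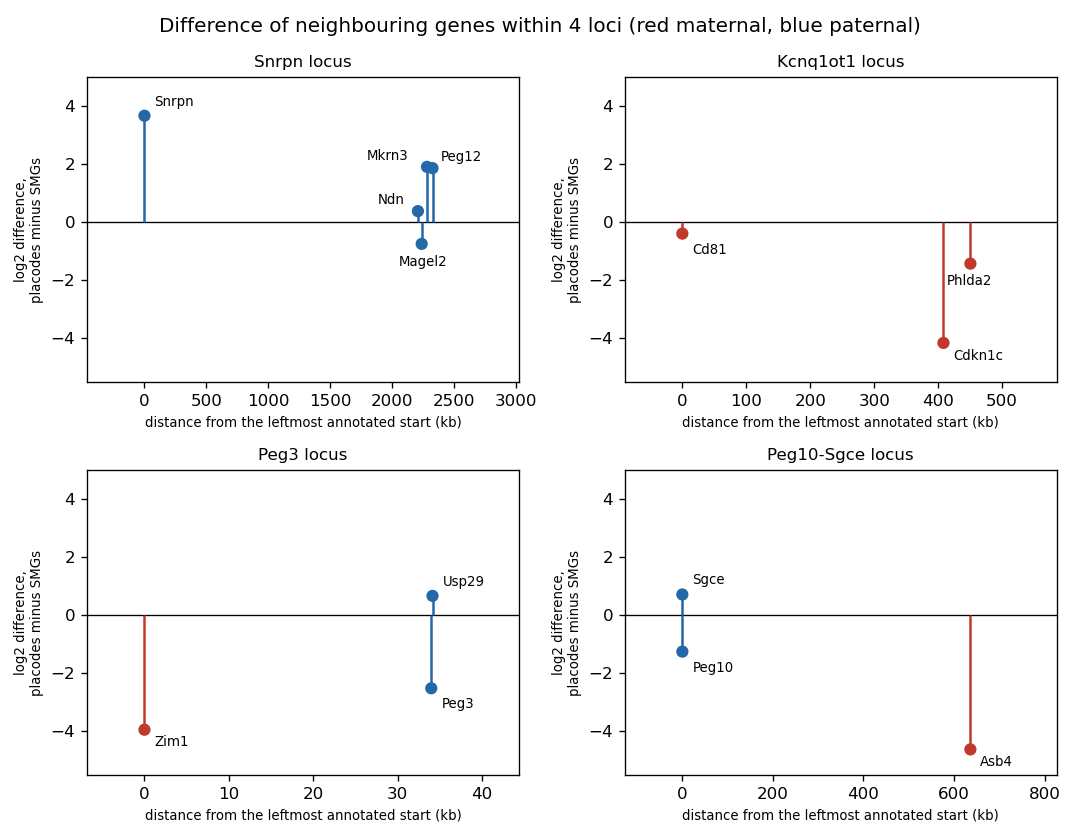
Each panel gives the log2 difference (placodes minus SMGs) of the tested genes of a locus against the distance in kb of their annotated starts (GENCODE M21) from the leftmost start, with red for maternally and blue for paternally expressed genes. Peg3 and Usp29 start close together and lie at -2.52 and 0.67, and Peg10 and Sgce at -1.25 and 0.72.

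The Snrpn locus on chromosome 7, which corresponds to the human Prader-Willi region, was the multi-gene locus with most genes higher in the placodes. All 5 of its members are paternally expressed, and 4 were higher and 1 was lower. Snrpn, a spliceosome protein gene with high levels in neurons, spans positions 59982495 to 60140219. In FPKM it was at 148 and 150 in the placodes and 10.1 and 11.4 in the SMGs, a 13.8-fold ratio of means. The log2 difference was 3.67 (standard error 0.07, adjusted p = 2.22e-07). Snrpn shares exons with Snurf, listed below 0.1 in every sample, and with Gm38393, at 2.81 and 3.85 in the placodes and 0.701 and 0.330 in the SMGs, so reads could have been divided between them. Mkrn3, a RING finger protein gene, had an FPKM of 15.7 and 14.8 against 3.26 and 3.41, and Peg12, a GSK3-binding FRAT family gene, 32.8 and 32.4 against 8.77 and 7.72. Their differences were 1.91 (adjusted p = 3.97e-06) and 1.87 (adjusted p = 3.15e-06).
The MAGE family neighbours Ndn and Magel2 differed less and in opposite directions. Ndn, which encodes necdin, a protein of postmitotic neurons, had an FPKM of 98.9 and 99.96 in the placodes and of 77.6 and 74.3 in the SMGs. The difference was 0.38 (standard error 0.05, adjusted p = 0.00045), below the median absolute difference of all tested features. Magel2 had an FPKM of 3.41 and 4.51 in the placodes and 7.59 and 6.94 in the SMGs, a difference of -0.74 (standard error 0.13, adjusted p = 0.00213).

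Plagl1 and Mest, paternally expressed and each alone at its locus here, were among the genes that were far lower in the placodes. Plagl1 on chromosome 10 encodes ZAC1, a zinc finger transcription factor linked to growth arrest. Its FPKM was 17.6 and 20.2 in the placodes and 465 and 518 in the SMGs, a difference of -4.63 (standard error 0.08, adjusted p = 2.22e-07). Mest on chromosome 6, a hydrolase-like gene of embryonic mesoderm, had an FPKM of 149 and 139 in the placodes and of 1153 and 1227 in the SMGs. The difference was -3.04 (standard error 0.07, adjusted p = 3.98e-07). Mest shares exon bases on the opposite strand with Copg2, and whether strand was used in counting is not stated, so reads of the shared bases could go to either. Copg2 was at 35.4 and 38.3 in the placodes and at 27.8 and 28.2 in the SMGs, far below Mest.
Gnas on chromosome 2, the G protein subunit that couples receptors to cAMP, was high in every sample, at 506 and 483 in the placodes and 1345 and 1307 in the SMGs (difference -1.42, adjusted p = 6.82e-06). This locus makes maternal, paternal and biallelic transcripts that FPKM per gene does not separate. Slc38a4, an amino acid transporter gene on chromosome 15, had an FPKM of 15.8 and 17.4 against 41.4 and 37.6 (difference -1.20, adjusted p = 1.99e-05). Slc22a3, an organic cation transporter gene beside Igf2r, was below 0.2 in every sample.

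Small paternally expressed genes that sit within other genes formed most of the remaining set, and these 3, grouped after their values were seen, were higher in the placodes. Nap1l5, a nucleosome assembly retrogene inside Herc3 on chromosome 6, spans positions 58905233 to 58907076. It reached an FPKM of 37.8 and 37.2 in the placodes and of 0.585 and 0.311 in the SMGs. The placode mean was 83.7 times the SMG mean, with a log2 difference of 4.74 (standard error 0.11, adjusted p = 4.88e-07). Nnat, the proteolipid gene neuronatin inside Blcap on chromosome 2, was the most abundant imprinted gene of the placodes, at 780.3 and 795 against 217 and 218 in the SMGs. Its difference was 1.85 (standard error 0.05, adjusted p = 9.59e-07). Zrsr1, a splicing factor retrogene inside Commd1 on chromosome 11, had an FPKM of 7.59 and 6.81 against 2.79 and 2.84 (difference 1.10, adjusted p = 8.89e-05).
The host genes of these 3, singled out after their values were seen, differed less than the genes they hold. Mcts2 and its host H13, of the further list below and also named after their values were seen, did not follow this. Mcts2 had a log2 difference of 1.11 and H13 of -1.66. Herc3 had a log2 difference of 0.73 (adjusted p = 0.000355) and Blcap of 0.29 (adjusted p = 0.00181). Commd1 was not called, at -0.18 (95% interval -0.37 to 0.02, adjusted p = 0.0829), and it shares exon bases with Zrsr1 on the opposite strand. The differences between host and inner gene were not tested.
The paternally expressed genes Impact and Zdbf2 differed by less than 2-fold. Impact, which encodes an inhibitor of the stress kinase GCN2, had an FPKM of 31.5 and 35.9 in the placodes and of 21.6 and 21.3 in the SMGs (difference 0.63, adjusted p = 0.00033). Zdbf2, a zinc finger gene, had an FPKM of 8.0 and 8.46 against 10.5 and 9.64. The difference of -0.26 (adjusted p = 0.024) did not pass the threshold after scaling to an equal sum of FPKM (adjusted p = 0.0514) or without placode sample 1 (0.122), placode sample 2 (0.0685) or SMG sample 1 (0.120).

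Further imprinted genes, a list of 39 beside the 38, were called in both directions. Of these, 36 were listed under the symbols used, and Frat3 is an older name of Peg12. Of 25 tested, 9 were higher and 12 were lower, where 35.7% of all tested features were higher and 40.4% lower. The median log2 difference of the 25 was -0.18, and 11 or 12 were lower under 3 other scalings. Inpp5f had the widest rise, at 78.5 and 77.7 in the placodes against 8.17 and 7.61 in the SMGs (difference 3.15, adjusted p = 2.22e-07), and this total does not separate its imprinted variant from the biallelic transcript. Dhcr7, a cholesterol synthesis enzyme gene, and Sfmbt2, a Polycomb gene, followed at 1.14 and 1.12. Klf14, a transcription factor gene near Mest, had the widest difference below 0, at 0.0908 and 0.0786 against 18.5 and 18.1 (difference -4.15, adjusted p = 4.26e-07). Dcn, also a mesenchymal marker above, had a difference of -3.83, and Ddc, the neighbour of Grb10, of -2.43. Klf14, Sfmbt2 and Rtl1 passed the minimum mean only through the group in which they were high.
Of 13 tested genes that set or keep imprints, 10 were lower in the placodes, where 40.4% of all tested features were lower, and 1, the Polycomb methyltransferase gene Ezh2, was higher (difference 0.36, adjusted p = 0.00169). Under 3 other scalings 8 or 9 were lower. The median difference was -0.35, and that of the 15 housekeeping genes, of which 10 were lower, was -0.46. Uhrf1, which brings DNMT1 to replicating DNA, had a difference of -1.18 (adjusted p = 7.83e-06), the de novo methyltransferase gene Dnmt3b of -1.12 and the histone methyltransferase gene Ehmt2 of -0.75. Zfp57, named after its values were seen, was not called. Its FPKM was 25.9 and 27.1 in the placodes and 28.9 and 26.0 in the SMGs, with overlapping values and a log2 difference of -0.05 (95% interval -0.21 to 0.12, adjusted p = 0.551).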

How the data were processed

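Bulk RNA-seq of 4 samples was used, 2 of day 10 SG placodes and 2 of E12.5 SMGs, grouped by their titles. The authors mapped paired-end reads with HISAT2 and deposited FPKM per gene. The submitters' processing notes name HISAT2, GRCm38 and GRCh38. The quantification program, annotation and use of strand are not given in the sources used here. Read counts were not recovered from the FPKM values, so depth is unknown and no counting intervals are given. Summed FPKM ranged from 361963 to 384773 per sample.

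Members were matched by symbol. Of 22036 Ensembl identifiers, 22022 were found in GENCODE M21 (GRCm38), the source of coordinates and shared exons. Of the 31 listed members, 12 shared exon bases with another annotated gene. Features with a mean FPKM of at least 1 were tested on log2(FPKM + 1) with limma 3.58.1 in R 4.3.3 (eBayes with trend, group as the only term, two-sided, Benjamini-Hochberg adjustment over 13193 features). The fit was tested on simulated data. Promoter windows and motif matches were read in Python 3.11.15 from RefSeq tables. Members and gene lists were chosen with earlier results of these data known, parental alleles came from textbook knowledge, and all members were named. Of the lists, the 3 called genes with the widest difference in each direction were named by rule, as was the highest tested gene of each marker list in each group. Alternatives are given in the closing section. Within-locus ratios with the 7 non-coding genes were not computed.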

Additional observations from a re-analysis of the deposited data

How the results depend on the processing

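Of the 28 tested imprinted genes, 0 changed direction, where tested, under 14 alternatives: a pseudocount of 0.1 or 0.01, 3 other scalings, a minimum of mean FPKM of 5 or none, eBayes without trend or robust, a replicate block, and each sample left out in turn. The calls of Dio3 and Zdbf2 were the ones that moved: Dio3 passed in 4 of 13 alternatives (adjusted p 0.0342 to 0.276) and Zdbf2 in 10 of 14 (0.0227 to 0.122). Requiring a 2-fold difference beside the adjusted p left 3877 features, 6 imprinted genes that were higher and 6 paternally expressed genes that were higher. At a pseudocount of 0.1 the mean log2 ratio of Peg3 to Usp29 in the SMGs was 5.84 in place of 5.65. At least 2 matches of TGCCGC were found in 8.16% of the windows, against 1.53% of all windows, and 2 of these 4 windows are the overlapping pair of Mest. With the replicate number as a block, 10 imprinted genes were higher and 17 were lower, as without it. With this block, all features called numbered 10043. The labels share only a number. Deviations of same-numbered samples from their group means had a correlation of -0.03 across features. With 2 samples per group, this cannot tell whether same-numbered samples were handled together. Leaving out a sample left 1 sample in its group, which is then assumed to vary like the other group, and 8622 to 9142 features were called, with 10 to 11 imprinted genes higher and 16 to 17 lower. Depth is unknown, so the low values of Slc22a18, Ascl2 and Slc22a3 are given without a counting error. No sequencing batch is named, so a batch that follows the groups cannot be told apart from them.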
